A study of Mus musculus with 13 samples.

Results

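GABA-A receptors are chloride channels that open when GABA binds, and they carry most of the fast inhibition in the hippocampus. Each receptor is a ring of subunits, usually alpha and beta subunits together with a gamma or a delta subunit, and the mix of subunits sets where in the neuron the receptor sits and how it responds. Receptors with gamma subunits are mostly held at synapses by the scaffold protein gephyrin, whereas receptors with the alpha5 or the delta subunit lie largely outside synapses and carry the persistent (tonic) inhibition. The subunit genes followed here were Gabra2, Gabra3, Gabra4 and Gabra5 (alpha subunits), Gabrb1 and Gabrb2 (beta subunits) and Gabrd (the delta subunit). They were chosen by gene symbol, all 7 were found in every library, and they are 7 of the 55291 gene symbols counted.

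The data were RNA sequencing counts of CA1 tissue cut from entorhino-hippocampal tissue cultures of wildtype C57BL/6 mice. The cultures were prepared from pups of either sex at postnatal day 4 to 5, matured for at least 18 days, and then fell into 3 groups. Control cultures had no lesion (5 libraries), SCL cultures had a Schaffer collateral lesion, which cuts the CA3 axons that run into CA1 (4 libraries), and ECL cultures had an entorhinal cortex lesion, which cuts the entorhinal input (4 libraries). Lesioned cultures were taken 3 days after the lesion, and each library came from the tissue of 1 culture, with every cell type of that tissue in it. Fewer cells of a type and less RNA per cell therefore cannot be told apart in these values. The column headings mark control replicates 1 and 2, SCL replicate 4 and ECL replicates 2, 3 and 4 as m, and the other libraries as f. Read as sex, these letters were spread unevenly between SCL and ECL, so sex and lesion were partly confounded. The deposited protocol text names the dentate gyrus as the tissue cut out, whereas the sample titles and the study's methods name CA1. The summed level of 6 CA1 pyramidal cell markers, such as Wfs1, lay between 278 and 492 normalized counts per 1000000 counts (CPM) in all 13 libraries, and that of 7 dentate granule cell markers between 86.4 and 204. Of the latter, Dsp, C1ql2 and Plk5 stayed at or below 1.69 CPM in each library. Prox1, Dock10, Trpc6 and Rfx3 had control means of 16.3, 34.7, 13.4 and 80.7 CPM. These lay above the 10.0 CPM of Wfs1. The markers therefore do not settle which part of the hippocampus was cut out.

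Library totals were 14371152 to 21092612 counts in controls, 16405517 to 56786613 after SCL and 20210165 to 46449937 after ECL. Mitochondrial genes took 6.07% to 7.96% of the counts in controls, 3.42% to 4.26% after SCL and 4.10% to 5.38% after ECL, so the controls stood above all lesioned libraries, while the SCL and ECL ranges overlapped. Longer genes had lower fold changes after either lesion (Spearman rho across genes between fold change and exonic length -0.37 after SCL and -0.35 after ECL; genes are not independent replicates). The part of these differences in the results was not tested beyond the fits with a length and GC term given below.

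Levels are given in CPM, that is, counts divided by the library's total over the genes above a minimum level, after scaling for composition (TMM) and multiplied by 1000000. Changes are log2 fold changes from edgeR's quasi-likelihood test, two-sided, with Benjamini-Hochberg adjusted p over all genes whose mean normalized count in the fit reached 150, and a gene was called at an adjusted p under 0.05. By this test none of the 6 subunit genes above that minimum was called after SCL, whereas 24.9% of the 11438 genes tested were. None of the same 6 was called after ECL, against 27.8% of the 11212 genes tested. ECL against SCL called none of the 6 members and 0% of the 12232 genes by edgeR (897 had an unadjusted p under 0.05; DESeq2 called 62 and limma voom 0). Without adjustment, 1 of the 6 members (Gabrb2, after SCL) had a p under 0.05 in the edgeR fits at this minimum. None of the 6 did after ECL or between the lesions. DESeq2 and limma voom also called none of the 6 members in any of the comparisons. The median log2 fold change of the 6 members was -0.05 after SCL and -0.08 after ECL, beside 0.01 and -0.01 over all genes tested. Scaling over all symbols moved the median of all genes to 0.21 and 0.18 and the share of higher calls from 1504 of 2848 to 2516 of 3112 after SCL and from 1708 of 3114 to 2435 of 3130 after ECL, and it called none of the 6 members either. Gabrd fell under the minimum in all 3 fits, and it was tested with a lower minimum as described at the end.

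**Figure D1:**
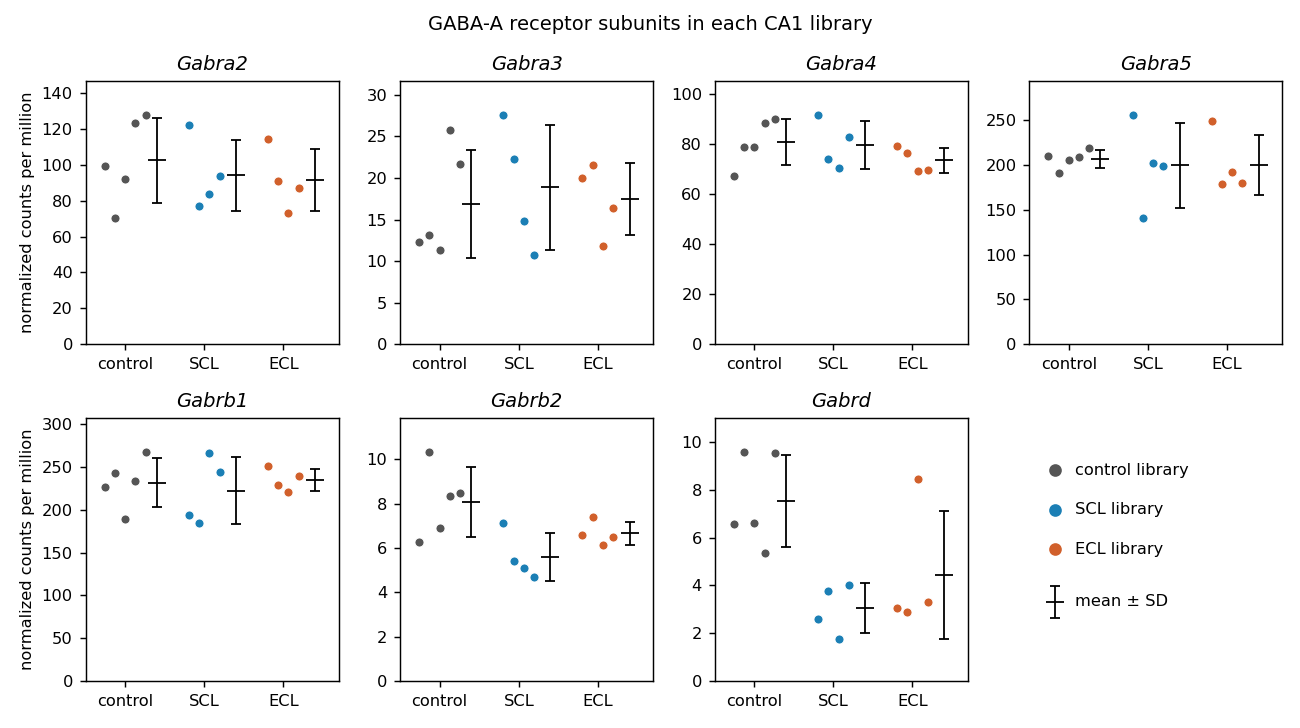
Normalized CPM (y axis, from 0, on a scale of its own for each gene) of the 7 GABA-A receptor subunit genes in each library, grouped as control (n = 5), SCL (n = 4) and ECL (n = 4); points are libraries and bars are mean ± SD. The groups overlap for every gene except Gabrd, whose 4 SCL libraries (1.76 to 4.03) all lie below the 5 controls (5.35 to 9.58), while 1 ECL library reaches 8.44.

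Gabra5 encodes the alpha5 subunit, which is known for its strong expression in hippocampal pyramidal cells and for tonic inhibition of their dendrites. Its level was 210, 191, 205, 208 and 218 CPM in control libraries 1 to 5, a coefficient of variation of 4.93%. After SCL it was 255, 140, 203 and 199 CPM in replicates 1 to 4, so that 1 lesioned library stood above and 1 below every control while replicates 3 and 4 lay inside the control range. After ECL it was 249, 179, 192 and 179 CPM, with replicate 1 above all controls, replicates 2 and 4 below all of them and replicate 3 inside their range. The mean after SCL was 199 ± 46.9 (SD, n = 4) against 207 ± 10.2 in controls (n = 5), a log2 fold change of -0.05 (95% interval -0.39 to 0.29; edgeR adjusted p = 0.843). After ECL the log2 fold change was -0.04 (-0.33 to 0.25; edgeR adjusted p = 0.853). As ratios to the control level, the SCL interval runs from 0.764 to 1.22 and the ECL interval from 0.796 to 1.19. The larger spread among lesioned libraries (23.6% after SCL and 16.6% after ECL) was not tested. Of its annotated exon bases, 148 (4.98%) overlap the antisense gene Gm9962, whose reads the counting without strand could not tell apart.

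Gabra2 encodes the alpha2 subunit, found in synaptic receptors on pyramidal cells, including those on the axon initial segment. Controls held 99.4, 70.2, 91.8, 123 and 128 CPM, SCL libraries 122, 77.2, 84.0 and 93.6 CPM, and ECL libraries 114, 90.8, 73.0 and 87.3 CPM. Every lesioned library lay within the control range, which itself spanned 70.2 to 128. The log2 fold change was -0.12 after SCL (-0.52 to 0.28; edgeR adjusted p = 0.677) and -0.16 after ECL (-0.56 to 0.24; edgeR adjusted p = 0.567). With a term for length and GC content the sign turned, to 0.15 after SCL and 0.12 after ECL, and it was also positive with scaling over all symbols (0.090 and 0.047), so no direction is given for this gene.

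Gabra4 encodes the alpha4 subunit, the usual partner of delta in extrasynaptic receptors of the forebrain. Its level was 67.2, 78.8, 78.8, 88.5 and 89.9 CPM in controls, 91.4, 73.9, 70.3 and 82.8 after SCL, and 79.1, 76.4, 69.1 and 69.5 after ECL. The groups overlapped throughout, and the ECL libraries were the closest together (mean 73.5 ± 5.00). The log2 fold change was -0.02 after SCL (-0.30 to 0.27; edgeR adjusted p = 0.936) and -0.13 after ECL (-0.41 to 0.16; edgeR adjusted p = 0.520). With scaling over all symbols the values were 0.19 and 0.066, still without a call. Gabra4 (GENCODE M21 on GRCm38, chromosome 5, 71569749 to 71658308, minus strand) starts head to head with Gabrb1 (71658113 to 72149037, plus strand), and the annotated exons of this pair share 46 bases on opposite strands, 0.756% of the Gabra4 exon bases. The counting did not use strand, so reads from these bases could not be assigned to either gene.

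Gabra3, on the X chromosome (72432681 to 72656848, minus strand), encodes the alpha3 subunit, which is more prominent in other brain regions and in developing cortex than in the mature CA1. It was the alpha gene with the widest spread: 12.3, 13.2, 11.3, 25.8 and 21.6 CPM in controls, 27.5, 22.3, 14.8 and 10.7 after SCL, and 20.1, 21.6, 11.8 and 16.3 after ECL. Each group held libraries below 13 and libraries above 20, so the spread within a group (coefficient of variation 38.5% in controls, 39.8% after SCL and 25.0% after ECL) was larger than any difference between groups. The log2 fold change was 0.17 after SCL (-0.49 to 0.84; edgeR adjusted p = 0.716) and 0.06 after ECL (-0.53 to 0.65; edgeR adjusted p = 0.894). As a ratio to the control level, the interval after SCL runs from 0.711 to 1.78. This fit therefore did not exclude a difference within these bounds for Gabra3. The libraries highest in Gabra3 were also those highest in the summed level of 10 astrocyte markers, with 14122 CPM in control replicate 4 and 14226 CPM in SCL replicate 1, whereas control replicate 3, with the least Gabra3 among controls, had 8576; the part of astrocyte content in the Gabra3 level was not tested.

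Gabrb1 encodes the beta1 subunit, one of the beta subunits needed for receptor assembly and for the GABA binding site. Its level was 226, 242, 189, 233 and 267 CPM in controls, 194, 185, 266 and 244 after SCL, and 251, 229, 220 and 239 after ECL. SCL replicate 2 lay just below the lowest control, replicate 1 at the lower edge of the controls and replicates 3 and 4 in their upper part. All ECL libraries lay inside the control range. The log2 fold change was -0.06 after SCL (-0.37 to 0.26; edgeR adjusted p = 0.803) and 0.03 after ECL (-0.25 to 0.31; edgeR adjusted p = 0.893). Gabrb1 has the longest annotated exons of the 7 genes (13838 merged bases), and the fit with a length and GC term gave 0.25 after SCL and 0.32 after ECL, neither of them called. In that fit the ECL interval was 0.04 to 0.60, with an unadjusted p of 0.0288 and an edgeR adjusted p of 0.0821.

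Gabrb2 encodes the beta2 subunit, a beta subunit found in many synaptic receptors of the brain. It was low in this tissue, with 6.25, 10.3, 6.89, 8.35 and 8.46 CPM in controls, which rested on 102 to 196 counts per library. After SCL it was 7.13, 5.40, 5.10 and 4.68 CPM, so that 3 of the 4 SCL libraries lay below the lowest control and replicate 1 lay among the controls. After ECL it was 6.59, 7.39, 6.14 and 6.49 CPM, a narrow range at the lower edge of the controls. The mean ± SD was 8.06 ± 1.58 in the 5 controls, 5.58 ± 1.08 in the 4 SCL libraries and 6.65 ± 0.526 in the 4 ECL libraries. The log2 fold change after SCL was -0.53 (SE 0.24, 95% interval -1.05 to -0.01), with an unadjusted p of 0.0470 and an edgeR adjusted p of 0.123 over all genes, which did not pass the threshold. After ECL it was -0.27 (-0.76 to 0.22; edgeR adjusted p = 0.401). In the 20 alternative fits that kept Gabrb2 above the minimum, its log2 fold change after SCL ran from -0.61 to -0.33 and its adjusted p from 0.0725 to 0.482, and no fit called it.

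**Figure D2:**
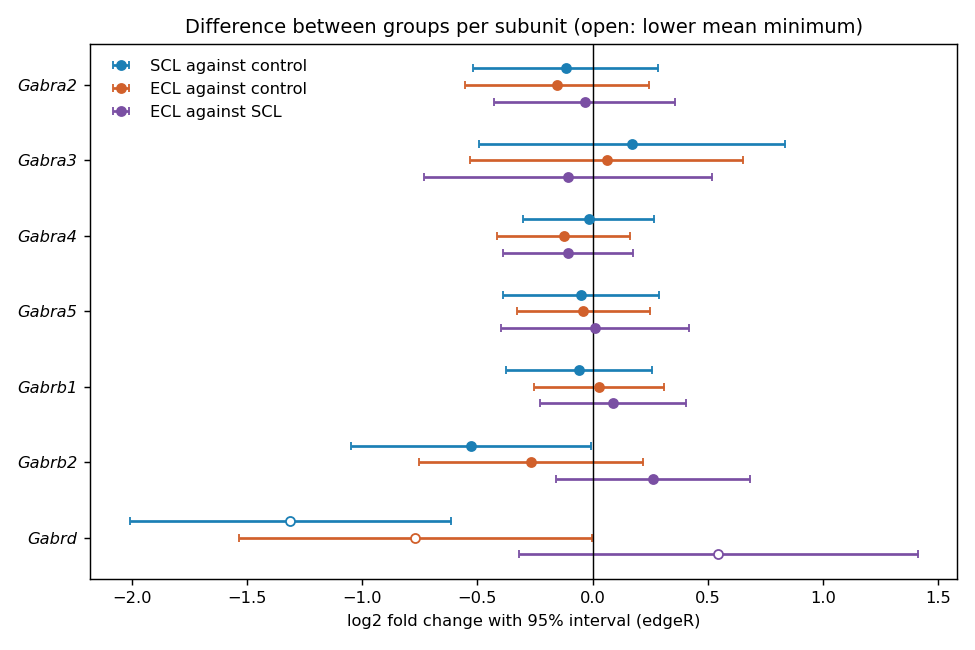
Log2 fold change (x axis) with its 95% interval from edgeR for each subunit gene (y axis), for SCL against control (n = 4 and 5 libraries), ECL against control (n = 4 and 5) and ECL against SCL (n = 4 and 4). Filled points come from the fit with a mean minimum of 150 and open points, for Gabrd, from the fit with a minimum of 50; the Gabrd interval after SCL (-2.01 to -0.62) lies farthest from 0.

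The promoter windows of RefSeq on GRCm38.p6, which run from 250 bases before to 50 bases after each transcript start, were searched on both strands for motifs of activity-regulated factors, since the lesions remove excitatory input. Windows were given for 6 of the 7 members, 10 windows in all, and none for Gabrd. The EGR motifs GCGTGGGCG and GCGGGGGCG were in none of the 10 windows and in 3.47% of the 32851 windows of all genes. The full cAMP response element TGACGTCA was also in none, against 1.79% of all windows, while its core TGACG, which the full element contains, was in 1 member window, against 20.8% of all. That match was in Gabrb2, which has more than 1 window, in the window from 42420190 to 42420489. It is shown with 10 bases on each side (chr11:42420429-42420453, plus strand, 5′ to 3′). The match, which reads the core on the opposite strand, is in capitals.
Gabrb2: gggtcaggagCGTCAcagcgccaga
The match begins at the base just before the annotated transcript start of that window. A match of these letters is a description of the sequence and not a binding site, and a window without a match says nothing about the factor.

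Levels of different genes were compared per kilobase of gene length. Per kilobase of merged exons, Gabra5 was the highest of the 7 in all 13 libraries, with 69.4 ± 3.43 CPM per kilobase in the 5 controls, 67.0 ± 15.8 in the SCL and 67.1 ± 11.2 in the ECL libraries (mean ± SD). Gabrb1 followed with 16.7 ± 2.07, 16.1 ± 2.83 and 17.0 ± 0.955, and its range met that of the next gene in controls and after SCL but not after ECL. Gabra2 and Gabra4 could not be ranked against each other, at means of 13.4 and 13.3 in controls, since Gabra2 was the higher of this pair in 3 of 5 control libraries and Gabra4 in 3 of 4 libraries after either lesion. Gabra3 lay well below them, at 4.29 ± 1.65 in controls, and Gabrb2 was lowest in every group, at 1.27 ± 0.249 in controls, 0.877 ± 0.169 after SCL and 1.05 ± 0.0828 after ECL. Gabrd changed its distance to Gabrb2: with 2.62 ± 0.667 in controls it was the higher of this pair in 5 of 5 libraries without overlap of the ranges, with 1.06 ± 0.367 after SCL it was higher in 2 of 4, and with 1.54 ± 0.934 after ECL in 3 of 4.

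The order at the top depended on the length used. Per kilobase of merged coding bases, which leaves out the untranslated exons, Gabrb1 came first, with 163 ± 20.1 CPM per coding kilobase in controls, and Gabra5 second with 149 ± 7.33, an order that held for the group means after SCL (156 and 143) and ECL (165 and 144) as well. Gabra5 made up 54.7% to 60.6% of the summed exonic level of the 7 members in the control libraries, but 32.7% of the summed coding level in controls. On either scale Gabra5 and Gabrb1 headed the order, Gabra2 and Gabra4 came next, and Gabra3, Gabrd and Gabrb2 were the low members in all 3 groups. Per coding kilobase the mean of Gabrd lay above that of Gabrb2 (5.25) in controls but below it after the lesions, with 2.26 against 3.63 after SCL and 3.28 against 4.33 after ECL. On the exonic scale Gabra5 held 52.0% to 61.3% after SCL and 55.3% to 61.0% after ECL, ranges that overlapped with the controls. The share of Gabrd was 1.46% to 2.98% in controls, 0.533% to 1.45% after SCL, without overlap, and 0.780% to 2.71% after ECL. Differences in share were not tested.

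**Figure D3:**
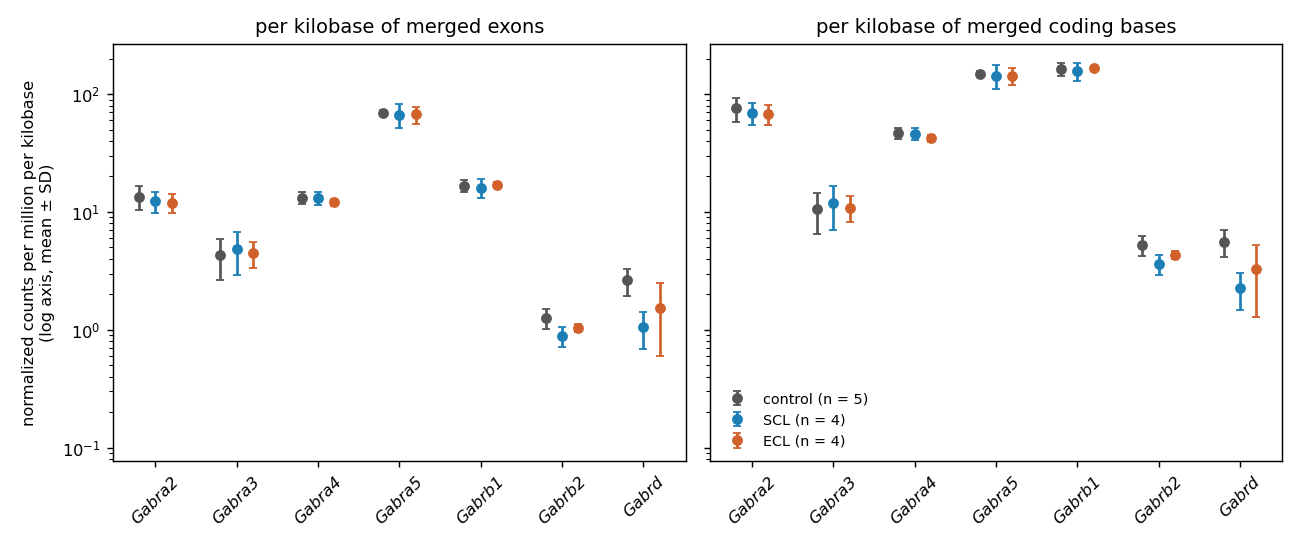
Level of each subunit gene (y axis, log scale, normalized CPM per kilobase, mean ± SD) per kilobase of merged exons (left) and of merged coding bases (right) in control (n = 5), SCL (n = 4) and ECL (n = 4) libraries. Gabra5 stands alone at the top on the left and shares the top with Gabrb1 on the right, and the Gabrd means of the lesioned groups lie below its control mean on both scales.

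Gabrd encodes the delta subunit, which replaces gamma in receptors outside the synapse, responds to low GABA concentrations and to neurosteroids, and in the hippocampus is best known from dentate granule cells and some interneurons. Its level was 6.59, 9.58, 6.62, 5.35 and 9.54 CPM in controls, 2.60, 3.77, 1.76 and 4.03 after SCL, and 3.07, 2.87, 8.44 and 3.31 after ECL. All 4 SCL libraries lay below all 5 controls; genes whose libraries did not overlap between these groups made up 23.6% of the genes in the main test after SCL and 25% after ECL. After ECL 3 of 4 libraries lay below the controls and replicate 3 lay among them. These levels rested on 98 to 182 counts per library in controls, 66 to 219 after SCL and 66 to 176 after ECL.

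With the mean minimum lowered to 50, Gabrd was lower after SCL, with a log2 fold change of -1.31 (SE 0.32, 95% interval -2.01 to -0.62; edgeR adjusted p = 0.0141 over 14899 genes, of which 20.9% were called). The fitted level after SCL was 0.403 times the control level, with an interval from 0.248 to 0.653. After ECL the log2 fold change was -0.77 (SE 0.36, -1.54 to -0.003), with an unadjusted p of 0.0493 and an edgeR adjusted p of 0.134, which did not pass the threshold, where 23.7% of 14637 genes were called. No difference between the lesions was detected for Gabrd (log2 fold change of ECL against SCL 0.55, -0.32 to 1.41; edgeR adjusted p = 0.787), and it was 0.03 without ECL replicate 3. The lower minimum is used here because Gabrd could not be tested at 150, and the alternatives to it were chosen after seeing the data. After SCL the call held in all 15 of these alternative fits, leaving out each library in turn included, where the adjusted p ran from 0.000708 to 0.0485. After ECL the call turned on 1 library: without ECL replicate 3 the log2 fold change was -1.28 (edgeR adjusted p = 0.0128), and with a length and GC term it was -0.99 (edgeR adjusted p = 0.0407), while the remaining 13 alternatives gave no call.

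**Figure D4:**
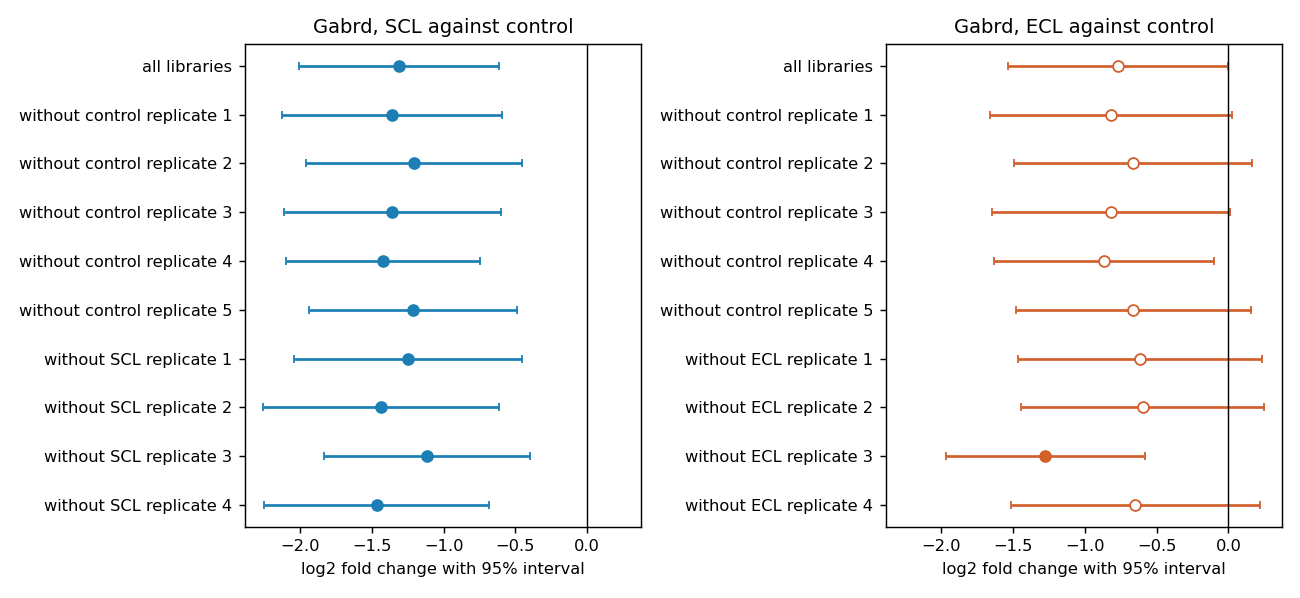
Log2 fold change of Gabrd (x axis, with 95% interval from edgeR, mean minimum of 50) for SCL (left) and ECL (right) against control, with all libraries and with each library left out (y axis). Filled points have an adjusted p under 0.05: all 10 on the left, and on the right only the fit without ECL replicate 3.

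Because Gabrd is a known gene of dentate granule cells, its level was set beside 7 markers of that cell type. Of these, 4 passed the minimum and 1, Rfx3, was called, lower after either lesion (log2 fold change -0.95 after SCL, edgeR adjusted p = 0.00940, and -1.16 after ECL, edgeR adjusted p = 0.00247). Of all genes tested, 24.9% were called after SCL and 27.8% after ECL. The summed marker level was 121 to 204 CPM in controls, 91.8 to 117 after SCL and 86.4 to 108 after ECL, so that the lesioned libraries all lay below the controls. Rfx3 itself ranged from 56.4 to 130 CPM in controls, 38.4 to 48.4 after SCL and 30.3 to 41.6 after ECL. Prox1, which specifies granule cells, lay between 10.6 and 19.9 over all libraries, with overlapping groups. The control, SCL and ECL means were 80.7, 41.8 and 35.9 CPM for Rfx3 and 13.4, 9.89 and 8.42 for Trpc6. Those of Dock10 were 34.7, 37.8 and 35.1. The fall of the marker sum therefore came mostly from Rfx3. ECL replicate 3, the lesioned library with the most Gabrd, had the lowest marker sum of all (86.4), and control replicate 4, with the highest sum, had the least Gabrd among controls. Control replicates 1, 3, 2 and 5 had marker sums of 121, 130, 132 and 148 and Gabrd levels of 6.59, 6.62, 9.58 and 9.54 CPM. The 7 subunits that stayed under the minimum of 150 in all 3 comparisons (Gabra6, Gabre, Gabrp, Gabrq, Gabrr1, Gabrr2 and Gabrr3) had a median sum of 3.52 CPM in controls (1.90 to 9.88), 1.02 after SCL (0.653 to 2.67) and 0.780 after ECL (0.608 to 1.13). Without a low-count filter edgeR called Gabra6 and Gabrp after either lesion (adjusted p = 0.00958 and 0.0307 after SCL, 5.17e-06 and 0.0250 after ECL), all lower. It also called Gabrr3 lower after ECL (0.000616). With filterByExpr only Gabra6 after ECL was called of these 7 (0.00161). Within the controls the libraries with the smallest such sums, replicates 2 and 5 (1.90 and 2.35), were those with the most Gabrd. The part of granule cell content and of low-level counts in the Gabrd difference was not tested.

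**Figure D5:**
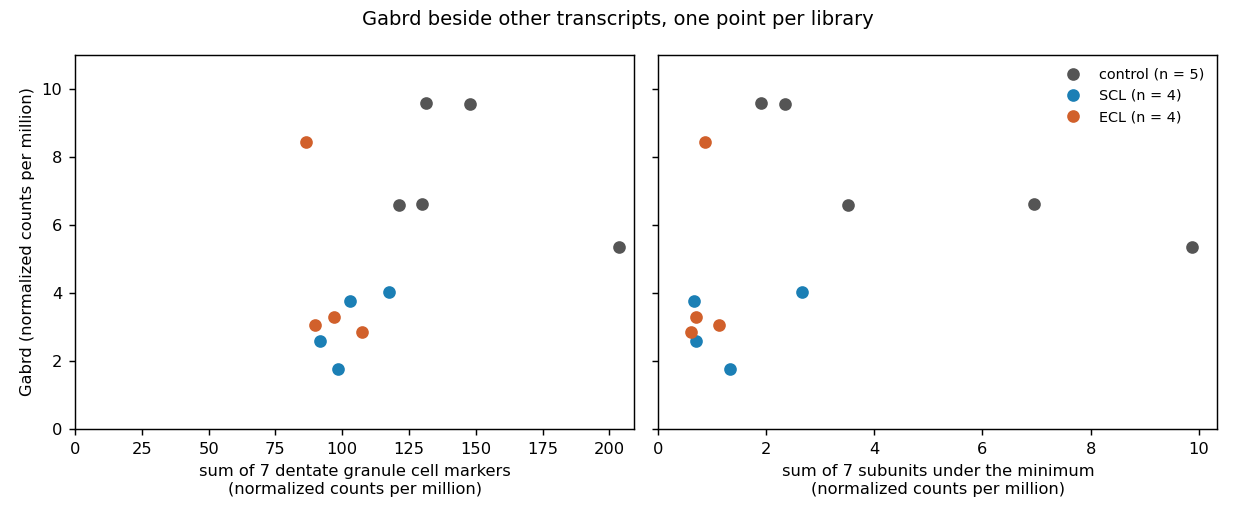
Gabrd (y axis, normalized CPM) against the summed level of 7 dentate granule cell markers (left) and of the 7 subunits under the minimum (right), with 1 point per library (control n = 5, SCL n = 4, ECL n = 4). Controls lie to the right of the lesioned libraries on the left panel, a separation that comes mostly from the marker Rfx3. There, control replicate 4 has the highest sum and the least Gabrd among controls, while control replicates 2 and 5 lie above replicates 1 and 3 in both values. On the right panel, control replicates 2 and 5 have the smallest sums among controls and the most Gabrd. The ECL library at 8.44 has the lowest marker sum.

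Among the gamma subunit genes, Gabrg1 was at 10.2 ± 2.36 CPM in controls and 10.8 ± 1.63 after SCL (mean ± SD), and its log2 fold changes after SCL and ECL of 0.09 (-0.41 to 0.59; edgeR adjusted p = 0.803) and -0.16 (-0.75 to 0.42; edgeR adjusted p = 0.696) were not called. Gabrg3 was at 19.1 ± 5.24 CPM in controls and 16.2 ± 2.60 after SCL, with log2 fold changes after SCL and ECL of -0.24 (-0.71 to 0.23; edgeR adjusted p = 0.445) and 0.07 (-0.41 to 0.55; edgeR adjusted p = 0.843), again without a call. For both genes the differences between groups were smaller than the SD within controls.

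Among 23 genes of the inhibitory postsynapse and of receptor trafficking, 21 were tested. Of these, 3 rose and 1 fell after SCL, and 3 rose after ECL (list medians -0.02 and 0.09). Over all genes tested, 24.9% were called after SCL and 27.8% after ECL. Gabarap, which takes part in receptor transport and autophagy, rose by 1.03 on the log2 scale after SCL (edgeR adjusted p = 0.00760) and by 1.12 after ECL (edgeR adjusted p = 0.00186), from 192 ± 55.3 CPM to 394 ± 87.2 and 417 ± 61.6. Clptm1, which retains receptor subunits inside the cell, rose by 0.72 and 1.13, a call that was lost after SCL without control replicate 1 or 5 or SCL replicate 2 or 3, and Iqsec3, a partner of gephyrin, rose by 0.92 after ECL (edgeR adjusted p = 0.0182; not called without ECL replicate 4). Gphn, the gephyrin gene, and Nlgn2, the neuroligin of inhibitory synapses, were not called, with log2 fold changes of -0.002 and 0.11 after SCL and 0.02 and 0.13 after ECL.

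Of 8 genes for making, loading, taking up and breaking down GABA, 6 were tested. After SCL 1 of them was called and after ECL 2, all lower. The counts in this paragraph stand beside 24.9% of all genes tested that were called after SCL and 27.8% after ECL. Gad1, the main GABA-synthesizing enzyme, fell after both lesions, by 0.41 on the log2 scale after SCL (edgeR adjusted p = 0.0353) and by 0.62 after ECL (edgeR adjusted p = 0.0171), from 321 ± 35.5 CPM to 241 ± 24.7 and 208 ± 54.6. The SCL call was lost in 13 of 25 alternatives, among them leaving out control replicate 2, 4 or 5 or SCL replicate 2, 3 or 4, and the ECL call in 4, among them leaving out ECL replicate 4. Slc32a1, the vesicular GABA transporter, fell by 1.12 after ECL (edgeR adjusted p = 0.0149; not called without ECL replicate 1 or 2), and Gad2 was not called (-0.09 after SCL and -0.12 after ECL). The interneuron marker list holds Gad1, Gad2 and Slc32a1 itself, and of its 11 tested genes 1 rose and 4 fell after either lesion. Of the 8 others tested, 1 rose (Npy) after either lesion. After SCL 3 of them fell (Dlx1, Erbb4 and Reln), and after ECL 2 fell (Dlx1 and Erbb4). The log2 fold change of Dlx1 was -1.16 and -1.27, and that of Npy 1.00 after SCL. The summed level of the list without Gad1, Gad2 and Slc32a1 overlapped between groups (1145 to 2233 CPM in controls, 2016 to 2673 after SCL and 1430 to 3169 after ECL), and their part in the Gad1 difference was not tested.

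The chloride gradient decides how GABA-A receptors act, and 10 of 11 genes of chloride transport and its kinases were tested. After each lesion 1 rose and 3 fell, with list medians of -0.47 after SCL and -0.35 after ECL. The shares called over all genes tested were 24.9% after SCL and 27.8% after ECL. Car2, a carbonic anhydrase that supplies bicarbonate and is also abundant in oligodendrocytes, rose by 1.17 and 1.34 (edgeR adjusted p = 0.00126 and 0.000848), while Wnk1, a kinase upstream of the chloride transporters, fell by 0.78 and 0.80 (edgeR adjusted p = 0.00886 and 0.00416; not called after SCL with a length and GC term). Wnk3 fell by 0.64 after SCL (edgeR adjusted p = 0.00791) and Oxsr1 by 0.69 after ECL (edgeR adjusted p = 0.00723). Slc12a5, the chloride exporter KCC2 of neurons, was at 134 ± 23.2 CPM in controls, 99.6 ± 18.7 after SCL and 103 ± 6.63 after ECL, and its log2 fold changes of -0.43 (-0.77 to -0.08; edgeR adjusted p = 0.0658) and -0.38 (-0.69 to -0.06; edgeR adjusted p = 0.0689) did not pass the threshold, except without control replicate 5 after either lesion (0.047 and 0.041), without SCL replicate 2 (0.035) and in 1 fit of all libraries after SCL (0.044). Slc12a2, the chloride importer NKCC1, was not called (-0.10 and -0.18). Of the 5 GABA-B receptor genes, Gabbr1 fell by 0.43 after SCL (edgeR adjusted p = 0.0240). This call was kept in 16 of 25 alternatives. It was lost, among others, with scaling over all symbols, with total counts only, with filterByExpr and without SCL replicate 1, 2 or 4. After ECL Kctd16 rose by 1.83 (edgeR adjusted p = 0.000256) and Kctd8 fell by 0.74 (edgeR adjusted p = 0.0442). The Kctd8 call was lost in 13 of 25 alternatives, among them leaving out any ECL library or control replicate 1 or 4.

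Some markers of other cells in the tissue were called after the lesions, while the tested subunit genes were not. Their counts stand beside 24.9% of all genes tested that were called after SCL and 27.8% after ECL. All 11 microglia markers rose after SCL and 7 rose after ECL, their sum going from 510 to 630 CPM in controls to 1023 to 2145 after SCL and 1031 to 1494 after ECL. Of 10 astrocyte markers 5 rose after SCL, and 4 rose and 1 fell after ECL, with the smallest adjusted p for Gjb6 after SCL (log2 fold change 1.04) and Aldoc after ECL (1.33; 1.59 after SCL). Of 12 general neuron markers 3 fell after SCL and 5 after ECL, with the smallest adjusted p for Nefm (-1.03 and -0.72), and of the 6 CA1 pyramidal markers 1, Pou3f1, fell after SCL (-0.82) and none after ECL. Mog, of the oligodendrocyte lineage, rose by 1.24 and 1.32. Mbp, the other lineage marker of 11 that was called, rose by 0.78 and 0.81, calls that were lost without control replicate 5, without control replicate 1, 3 or 4 or SCL replicate 2, 3 or 4 after SCL, and without ECL replicate 2 or 4 after ECL. Flt1, the tested endothelial marker, fell by 0.91 and 0.85 on the log2 scale. Of the CA3 pyramidal markers 2 of 6 were tested and neither was called. The part of these shifts in the subunit levels was not tested.

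For each subunit gene the most similar genes across the 13 libraries were sought among all genes above the same minimum, by Pearson's r of log2(CPM + 0.5); libraries share their depth and tissue content, and many genes were compared, so these are descriptions. Gabra5 went with Gnl2 (r = 0.892) and Neurod6 (0.812), a transcription factor gene of forebrain pyramidal neurons. Gabra2 went with Gpr85 (0.903) and Wdr75 (0.889), Gabra3 with Nono (0.915) and Pex3 (0.913), and Gabra4 with Sgcb (0.826) and Kansl2 (0.806). Gabrb1 went with Myo16 (0.832) and Ccdc146 (0.823), and Gabrb2 with Gm13629 (0.889) and D16Ertd472e (0.884). Gabrd went with Ier3 (0.927) and Golga2 (0.924), and these remained at 0.820 and 0.918 when group means were taken out. No member was the closest gene of another member: the highest r between members was 0.691, of Gabra2 with Gabra5.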

How the data were processed

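Per the labels, RNA of 1 isolate per culture was made into libraries with a low-input kit, a kind that amplifies cDNA by PCR. The isolate is CA1 in the sample titles and the dentate gyrus in the protocol text. According to the methods and the submitters' processing notes, the authors trimmed reads with cutadapt 3.5, mapped them with STAR 2.7.8a to mm10 (GRCm38) and counted them per gene with featureCounts 2.0.1, without strand. The deposited values are raw counts for 55291 symbols in each of 13 libraries, whose totals (14371152 to 56786613) limit the precision of low genes. Groups and replicate numbers come from the sample titles.

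The counts were tested with edgeR 4.0.16 in R 4.3.3 (TMM, estimateDisp, glmQLFit, glmQLFTest), in a fit of its own for each pair of groups, over genes with a mean count, after DESeq2 size factors, of at least 150, at an adjusted p of 0.05. The scripts were tested on simulated data. Replicates are separate cultures. Alternatives were DESeq2 1.42.0, limma 3.58.1 voom, other scalings and minimums (none, filterByExpr, 50), a replicate block, a sex term from the column headings, a length and GC offset (mgcv 1.9.3), thinned and halved counts (in case mates were counted separately), a threshold of 0.01 and leaving out each library. Among counts from 1 to 20, 63.0% (control replicate 4) to 74.3% (SCL replicate 3) were even, so counts may exceed the number of sequenced fragments. Whether mates were counted separately was not tested directly. Levels over all 13 libraries used 1 TMM scaling. Gene lengths were merged exons of GENCODE M21, in which 53292 symbols were found; RefSeq promoters were on GRCm38.p6. Protein sequences and coding lengths of RefSeq were not used here. The named genes were the 7 members, at most 3 called genes of each pathway list and 2 of each marker list by adjusted p per lesion, 6 genes named whatever their result (Gad1, Gad2, Slc12a5, Slc12a2, Gphn, Nlgn2), and the 2 most similar genes per member; other list genes were named after their values were seen. The members and lists were chosen with earlier results of these data known. Some genes of the lists are not reported here.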

Additional observations from a re-analysis of the deposited data

Results flagged for a closer look

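Gabrd in ECL replicate 3 stood apart from the other ECL libraries. Its level was 8.44 CPM, the nearest other ECL library was at 3.31, and this gap was 0.920 of the range of the group, above the critical value of 0.829 of Dixon's test for 4 samples. It was the only such value among the 21 combinations of a member and a group examined, and chance gives about 1 in 20. The same library had the lowest summed dentate granule marker level of the 13.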

How the results depend on the processing

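Among the alternatives to the main fit, the only member called was Gabrd after SCL. It was called without a low-count filter, with filterByExpr and with a mean minimum of 50. In the further fits of Gabrd at the minimum of 50, it was also called after ECL in 2 alternatives. These were a length and GC offset (-0.99) and leaving out ECL replicate 3. Leaving out libraries gave -1.28 to -0.60 after ECL. No filter called 5390 genes after SCL, 8034 after ECL and 217 between the lesions. A threshold of 0.01 called 1045 and 1492, and between the lesions DESeq2 called 62, a sex term 1 and 1 fit of all libraries 1. Leaving out libraries called 1679 genes (without SCL replicate 3) to 2797 after SCL, 2088 to 3062 after ECL and 0 to 54 (without SCL replicate 3) between the lesions. Same-numbered libraries did not deviate together in every pair (2 of 8, 3 of 8 and 2 of 8 libraries correlated best with their own number), so these numbers, from the titles, were not taken to pair libraries. The replicate block called 2342, 2663 and 0 genes and none of the 6 members. The column headings carry other numbers than the titles, and a replicate block by those, added after seeing the data, called 1824, 2283 and 0 genes, none of the 6 members, and Gabrd at the minimum of 50 after SCL (-1.31, edgeR adjusted p = 0.0381) but not after ECL (-0.79, 0.136).

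Log2 fold changes that turned their sign were all of genes without a call. With scaling over all symbols and with no filter, those after SCL became 0.090 and 0.090 for Gabra2, 0.19 and 0.19 for Gabra4, 0.15 and 0.15 for Gabra5, 0.14 and 0.14 for Gabrb1, 0.10 and 0.10 for Gad2, 0.20 and 0.20 for Gphn and 0.10 and 0.10 for Slc12a2. After ECL they became 0.047 for Gabra2, 0.066 for Gabra4, 0.16 for Gabra5, 0.054 for Gad2 and 0.0014 for Slc12a2 under either setting. With the length and GC offset they were 0.15 for Gabra2, 0.053 for Gabra4, 0.25 for Gabrb1 and 0.15 for Slc12a2 after SCL, and 0.12 for Gabra2 and 0.073 for Slc12a2 after ECL. With filterByExpr they were 0.049 for Gabra4, 0.018 for Gabra5, 0.0016 for Gabrb1 and 0.063 for Gphn after SCL, and 0.028 for Gabra5 after ECL. With the replicate block they were 0.020 for Gabra4, 0.0015 for Gad2 and 0.016 for Gphn after SCL. With total counts only they were 0.0079 for Gabra4 and 0.022 for Gphn after SCL. For Gphn after SCL a minimum of 50 gave 0.00044, limma voom 0.011, a sex term 0.0014 and thinned counts 0.033. The sex term also gave 0.024 for Gabra5, -0.0077 for Gphn and -0.0042 for Nlgn2 after ECL, and 0.061 for Gabra2 and 0.25 for Gabra3 between the lesions.

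Leaving out libraries spanned, after SCL, -0.066 to 0.37 for Gabra3, -0.090 to 0.045 for Gabra4, -0.19 to 0.088 for Gabra5, -0.15 to 0.023 for Gabrb1, -0.21 to 0.0032 for Gad2, -0.098 to 0.084 for Gphn and -0.044 to 0.22 for Nlgn2. After ECL it spanned -0.056 to 0.26 for Gabra3, -0.15 to 0.013 for Gabra5, -0.038 to 0.082 for Gabrb1, -0.081 to 0.11 for Gphn and -0.027 to 0.26 for Nlgn2. Between the lesions it spanned -0.16 to 0.12 for Gabra2, -0.29 to 0.13 for Gabra3, -0.13 to 0.16 for Gabra5 and -0.00082 to 0.18 for Gabrb1. The cause of these turns was not tested. Gabrb2 fell under the minimum in 5 alternatives after SCL and 4 after ECL, and at 66 to 219 counts of Gabrd per library, depth limits its precision. RefSeq coding lengths were not used here, and merged coding bases of GENCODE M21 were added after seeing the data.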
